A study of Mus musculus with 17 samples.

Results

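The transcripts described here are the short Ensembl transcripts with an annotated length over 122 nt and up to 200 nt in count tables from mouse testis. Length alone chose them: 1667 of the 37991 Ensembl transcripts in the tables lie in this range, and 4 of those (ENSMUST00000083808, ENSMUST00000122603, ENSMUST00000122512 and ENSMUST00000104231) were left out, which leaves 1663. The 4 fell by 6.27 to 6.86 on the log2 scale in Mael-/- small RNA in the test described below, so the calls among the 1663 are not those of all transcripts of this length. Within the range, 44 transcripts have a coding size in the mRNA tables and the other 1619 have none.

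Box H/ACA RNAs guide the change of uridine to pseudouridine in ribosomal and spliceosomal RNA, and some of them sit in Cajal bodies as scaRNAs. U1 RNA pairs with the 5′ splice site and U2 RNA with the branch point when the spliceosome assembles on an intron, and both are transcribed from many gene copies that are joined in the genome by numerous pseudogenes. MAEL (Maelstrom) is a germline protein of the piRNA pathway, and piRNAs are the small RNAs that bind PIWI proteins and are very abundant in the adult testis. The lengths of many H/ACA RNAs and of U1 and U2 fall in the chosen range. None of the 1663 identifiers could be matched to a gene symbol in the tables at hand, so no transcript is assigned to one of these RNA kinds, and no sequence or position is given.

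Of 17 libraries in the study, 9 from testis of the 129SvJae strain count these transcripts over their whole length. Small RNA of 15 to 50 nt was sequenced from wild-type and from Mael-/- testis, with 2 libraries (a and b) per genotype. From wild-type testis, RNA was also immunoprecipitated with an antibody to MAEL and sequenced as long RNA (2 libraries), after size selection for 50 to 150 nt (1 library) and as 15 to 50 nt RNA (1 library), and with rabbit IgG as long RNA (1 library). The age of the animals, whether they were pooled, and whether libraries a and b came from separate animals are not stated in the labels. The p-values therefore describe the spread between libraries alone, which may be technical. Testis also holds many cell types, and fewer cells of a type and less RNA per cell cannot be told apart in whole tissue. Mael's own level was not analysed here, so the genotype labels stand unchecked.

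Library totals ran from 4831638 to 44416966 counts in small RNA and from 5747210 to 10863053 in long immunoprecipitated RNA, and were 68922710 at 50 to 150 nt and 172728187 at 15 to 50 nt. Levels are given in CPM, which are counts scaled to these totals, and levels of different transcripts are compared only as CPM per kb of annotated length. No pair of libraries agreed within sampling noise: chi-square per degree of freedom over the short transcripts was 12.6 in wild-type small RNA, 26.9 in Mael-/- small RNA and 257 in anti-MAEL long RNA.

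Most of the short transcripts carried few reads. Counts were 0 in all 9 libraries for 376 transcripts, and 148 transcripts had counts in every library. At least 10 counts were found for 198 and 149 transcripts in the wild-type small RNA libraries a and b, for 223 and 177 in Mael-/-, for 94 in the shallower anti-MAEL long RNA library, for 120 with IgG, for 358 at 50 to 150 nt and for 316 at 15 to 50 nt. The 1287 transcripts with counts formed 651 distinct profiles, because 703 of them shared exactly the same 9 counts with at least 1 other transcript. Many of these ties lay near 0: the largest group, of 220 transcripts, had 1 count at 15 to 50 nt and 0 counts elsewhere. Another group of 95 had only 2 counts, also at 15 to 50 nt. Such ties do not point to shared reads. At high counts, transcripts with identical or nearly identical counts may share reads, so a sum over them can count a read more than once. Just inside the lower edge of the range, 46 transcripts had 45 counts in wild-type library a, and just outside it 31 transcripts of 122 nt had 67. At the upper edge, 7 transcripts of 200 nt had 705 counts and 11 of 201 nt had 8.

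The short transcripts took 4.49% and 4.97% of counts in wild-type small RNA and 1.65% and 2.85% in Mael-/- small RNA. Both Mael-/- libraries lay below both wild-type libraries, with means of 4.73% ± 0.335 (SD, n = 2) and 2.25% ± 0.850 (SD, n = 2; exact two-sided permutation p = 0.33, the smallest that 2 against 2 libraries allow). With the 4 excluded transcripts added, the means were 6.43% and 2.29%. Their share was 7.72% and 5.49% in anti-MAEL long RNA, 6.88% with IgG (exact 95% binomial interval 6.86% to 6.89%), 9.63% at 50 to 150 nt and 1.46% at 15 to 50 nt. Binomial intervals cover counting error only, since several reads can come from 1 molecule. A few transcripts made up these sums: the 10 with the most counts held 94.4% of the short transcripts' counts in each wild-type small RNA library, 56.4% and 58.2% in Mael-/-, and 27.2% in the 15 to 50 nt immunoprecipitate.

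**Figure D1:**
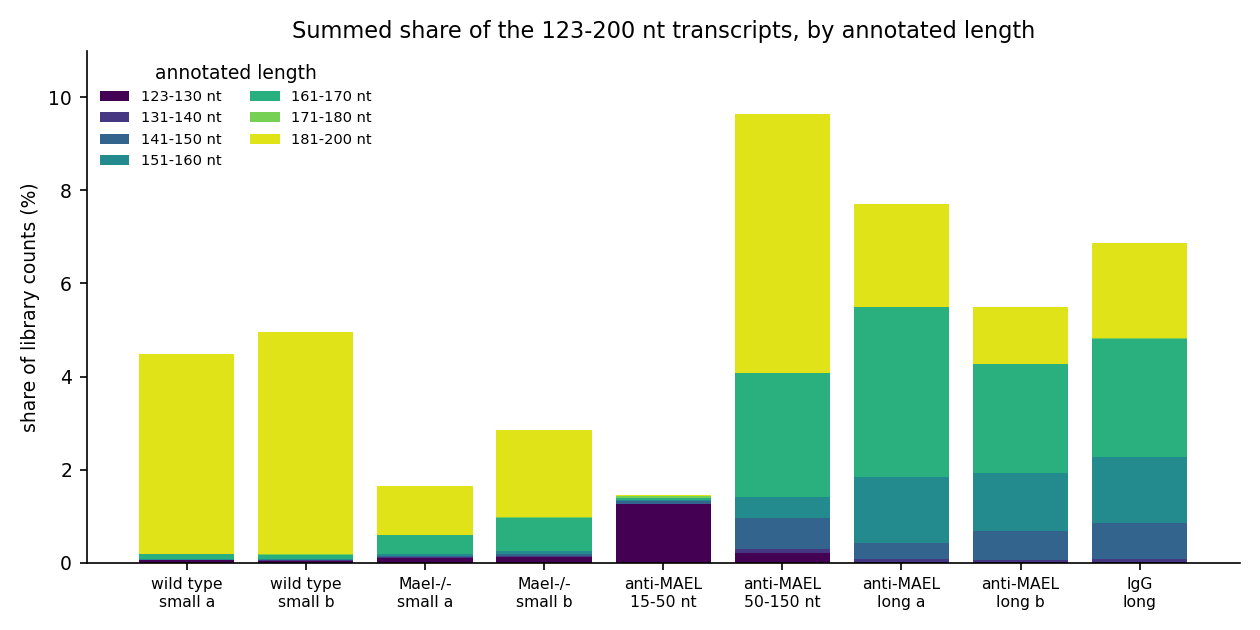
Share of each library's counts (%, vertical axis, starting at 0) taken by the 1663 transcripts, stacked by annotated length class, for the 9 libraries. Transcripts over 180 nt make up most of the wild-type small RNA bars, and those of up to 130 nt make up 86.1% of the 15 to 50 nt anti-MAEL bar.

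Different lengths led in different libraries. Transcripts over 180 nt held 4.55% ± 0.337 (SD, n = 2) of wild-type small RNA, 1.46% ± 0.582 of Mael-/- small RNA and 5.56% of the 50 to 150 nt immunoprecipitate, but 0.0353% of the 15 to 50 nt immunoprecipitate. Those over 160 and up to 170 nt held 0.0942% ± 0.00421 of wild-type small RNA and 0.561% ± 0.203 of Mael-/- small RNA, and 3.0% ± 0.933 of anti-MAEL long RNA beside 2.54% with IgG. Those of up to 130 nt held 1.26% of the 15 to 50 nt immunoprecipitate, against 0.0494% ± 0.00566 of wild-type and 0.120% ± 0.0148 of Mael-/- small RNA. Where these 3 classes were high, their reads sat almost wholly at 191 nt, at 164 to 166 nt and at 124 to 126 nt, which were picked out after their values were seen. They are the lengths with at least 1% of their class's counts in both wild-type small RNA libraries (191 nt), in all 4 small RNA libraries (164 to 166 nt) and in the 15 to 50 nt immunoprecipitate (124 to 126 nt). Without the 16 transcripts of 191 nt, the direction between the genotypes turned: the rest held 0.192% ± 0.00126 of wild-type and 0.849% ± 0.306 of Mael-/- small RNA. Shares are relative to library totals, on which 2449 of all features were called higher in Mael-/- and 139 lower. In the test described below, which scales otherwise, the median log2 fold change away from 191 nt was 0.69 (119 of 190 above 0). For transcripts of up to 130 nt it was -0.54 there (16 of 63 above 0), against the direction of their shares.

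Among the 16 transcripts of 191 nt, 10 were among the highest of all short transcripts in wild-type small RNA. They had 4077 to 4328 CPM in wild-type library a and 4444 to 4816 in library b, against 156 to 936 and 166 to 1719 CPM in Mael-/- libraries a and b. No Mael-/- value of the 10 reached the lowest wild-type value. The highest per length, ENSMUST00000083833, had 4328 and 4816 CPM in wild type and 936 and 1719 CPM in Mael-/-, or 23937 against 6950 CPM per kb in the means. The lowest of the 10 in Mael-/-, ENSMUST00000083298, had 4077 and 4444 CPM in wild type and 156 and 166 CPM in Mael-/-. Its wild-type counts of 181104 and 34558 lay next to the 180553 to 181054 and 34431 to 34560 counts of the 4 transcripts left out, although those have other annotated lengths (133, 147, 149 and 184 nt). In Mael-/- the 4 had 92.2 to 126 CPM in library a and 66.0 to 120 CPM in library b. Within each wild-type library these 14 transcripts differed little in counts, while in Mael-/- their counts spread from 2018 to 20483 in library a and from 319 to 8305 in library b.

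Another 3 transcripts of 191 nt went the other way. They had 163 to 241 CPM in wild-type library a and 234 to 346 in library b, against 1407 to 1486 and 2545 to 2658 CPM in Mael-/-. Their Mael-/- levels exceeded those of the 10 in the same library, and their wild-type levels lay below them. In anti-MAEL long RNA, 1 of the 3 had 2368 and 1321 CPM, as ENSMUST00000083833 did, so the 2 transcripts differed in total small RNA and hardly in long RNA. The remaining 3 transcripts of 191 nt had at most 22 counts in any small RNA library.

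**Figure D2:**
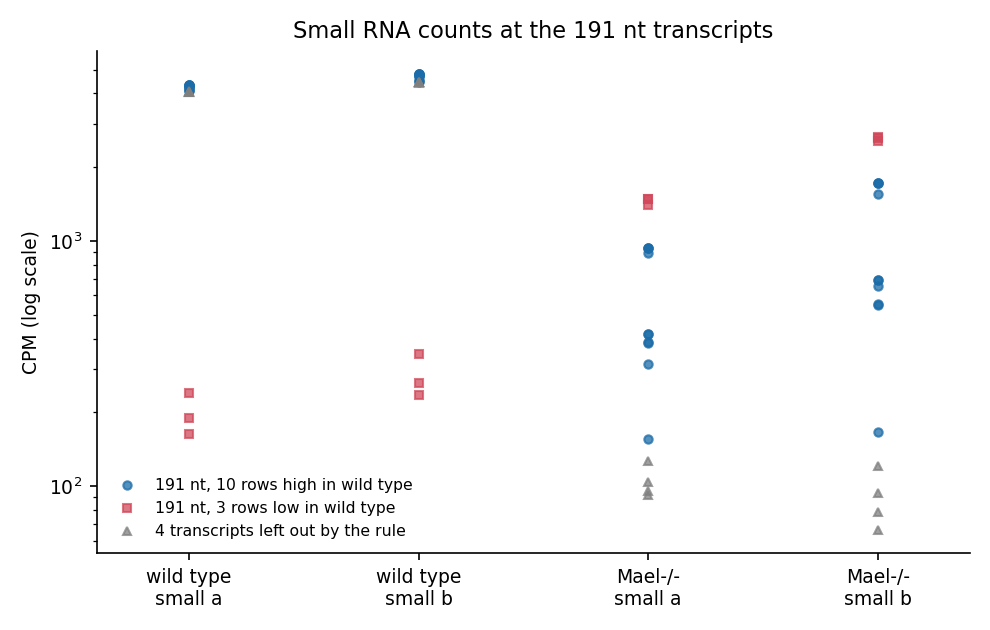
Small RNA level (CPM, log scale, vertical axis) of 13 transcripts of 191 nt and of the 4 transcripts left out, in the 2 wild-type and 2 Mael-/- libraries, with 1 point per transcript. The 10 circles lie between 4077 and 4816 CPM in wild type and between 156 and 1719 CPM in Mael-/-, and the 3 squares lie at 163 to 346 CPM in wild type and at 1407 to 2658 CPM in Mael-/-.

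The genotypes were compared with edgeR's quasi-likelihood test with TMM scaling, fitted over all 9906 features with enough counts, at a Benjamini-Hochberg adjusted p of 0.05. TMM sets the bulk of features equal between libraries, and scaling to library totals instead moved the median log2 fold change of all features by 1.26 upward in Mael-/-. Over all features, 3.82% were called higher and 3.49% lower in Mael-/-. Of the short transcripts, 203 entered the test, of which 13 rose and 18 fell, and 10 of the 18 were the 191 nt transcripts described above. Of the 190 tested at other lengths, 11 rose and 8 fell. The median log2 fold change was 0.61 for the 203 (middle range -0.65 to 1.34) and 0.15 for all features, and 122 of the 203 lay above 0. Counting the 4 excluded transcripts as well, 22 fell. With library totals, 84 of the short transcripts were called higher and 12 lower, beside 2449 and 139 of all features. With DESeq2's size factors the counts were 6 and 20 short transcripts, beside 226 and 347 of all features.

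The 10 high transcripts of 191 nt all fell, with log2 fold changes from -5.91 to -3.06, and they were called lower under each of the 3 scalings. With no filter on low counts 6 of the 10 were called (edgeR adjusted p up to 0.0987). The fall of ENSMUST00000083298 was -5.91 ± 0.679 (SE; edgeR quasi-likelihood, adjusted p = 0.00170). The call rests on both wild-type libraries. Without wild-type replicate a edgeR called none of the 10 (adjusted p from 0.0565 to 0.453, and 7 at an unadjusted p under 0.05) at a median log2 fold change of -4.25 in place of -4.28, and without replicate b 1 was. Of the 3 low transcripts of 191 nt, 2 rose, with log2 fold changes of 1.93 and 2.06 (edgeR adjusted p = 0.0452 and 0.0377), and the third, at 1.57, had an adjusted p of 0.0688. All 3 were called with library totals, and 2 with every piRNA entry kept. Their median log2 fold change was 1.64 and 2.02 without Mael-/- replicates a and b. It was 1.78 and 1.92 without wild-type replicates a and b. With DESeq2's size factors edgeR called 0 of the 3, all with an unadjusted p under 0.05, and DESeq2 itself called 3. With TMM, edgeR called 0 of the 3 with no filter on low counts (lowest adjusted p = 0.212), without wild-type replicate a (0.685) and without replicate b (0.477).

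Away from 191 nt and among means of 5 CPM or more, the largest called fall was that of ENSMUST00000122661 (158 nt). It had 7.77 and 39.9 CPM in wild type and 0.137 and 1.86 CPM in Mael-/-. The groups did not overlap, although each genotype's libraries differed widely from each other, and the log2 fold change was -6.32 ± 0.933 (SE; edgeR quasi-likelihood, adjusted p = 0.00539). It was called without each library in turn, at -7.99 without Mael-/- replicate b and -5.04 without wild-type replicate b. At means of 5 CPM or more, the largest called rises were those of 2 transcripts of 178 nt with nearly equal counts. ENSMUST00000157310 had 1.44 and 3.21 CPM in wild type and 8.91 and 45.1 CPM in Mael-/- (log2 fold change 2.21 ± 0.567, SE; edgeR adjusted p = 0.0439), and ENSMUST00000158270 had 1.42 and 3.09 against 8.64 and 43.5 CPM (2.20 ± 0.565; edgeR adjusted p = 0.0439). Both were highest in Mael-/- library b, and without it the log2 fold change of the first was 1.37. Neither rise was called without wild-type replicate a (edgeR adjusted p = 0.473 and 0.469), nor the second without wild-type replicate b (edgeR adjusted p = 0.0510). Over all short transcripts, edgeR called 0 rises and 3 falls without wild-type replicate a, where 13 rises and 15 falls had an unadjusted p under 0.05, and 5 and 8 without replicate b. For short transcripts and for all features alike, fewer were called without either wild-type library and more without either Mael-/- library. The median log2 fold change of the short transcripts tested was 0.76 without Mael-/- replicate b and 0.20 without Mael-/- replicate a.

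Transcripts of 164 to 166 nt were higher in Mael-/- by level but did not pass the test. There were 71 of them, of which 33 were tested, and all 33 had a log2 fold change above 0 (0.65 to 2.66, median 1.32) with an edgeR adjusted p of 0.0522 or more, and 32 had an unadjusted p under 0.05. ENSMUST00000082761 (164 nt) had 71.3 and 65.1 CPM in wild type and 311 and 516 CPM in Mael-/-, without overlap (log2 fold change 1.32 ± 0.460, SE; edgeR adjusted p = 0.0888). Many of the 33 share counts or nearly so, so they are not 33 separate measurements. With library totals all 33 were called higher, with DESeq2 14 of them, with every piRNA entry kept 7, and with DESeq2's size factors in edgeR 0 (17 at an unadjusted p under 0.05). With no filter on low counts edgeR called 0 of 39 tested, of which 37 lay above 0 and 15 had an unadjusted p under 0.05. With any 1 library left out, every log2 fold change tested at these lengths stayed above 0. The values ran from 0.207 to 1.278 without Mael-/- replicate a and from 0.812 to 3.172 without Mael-/- replicate b. They ran from 0.880 to 1.962 without wild-type replicate a and from 0.394 to 2.257 without wild-type replicate b.

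Of 165 transcripts of 124 to 126 nt, 59 were tested, with 2 called higher and 3 lower. The direction of most of the 59 depended on the scaling: 13 of the 59 lay above 0 (median log2 fold change -0.56), against 52 of 59 with library totals (median 0.64), where 9 were called higher and 0 lower. With TMM and 1 library left out, the median was -1.29 and -0.15 without Mael-/- replicates a and b. It was -0.31 and -0.80 without wild-type replicates a and b.

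**Figure D3:**
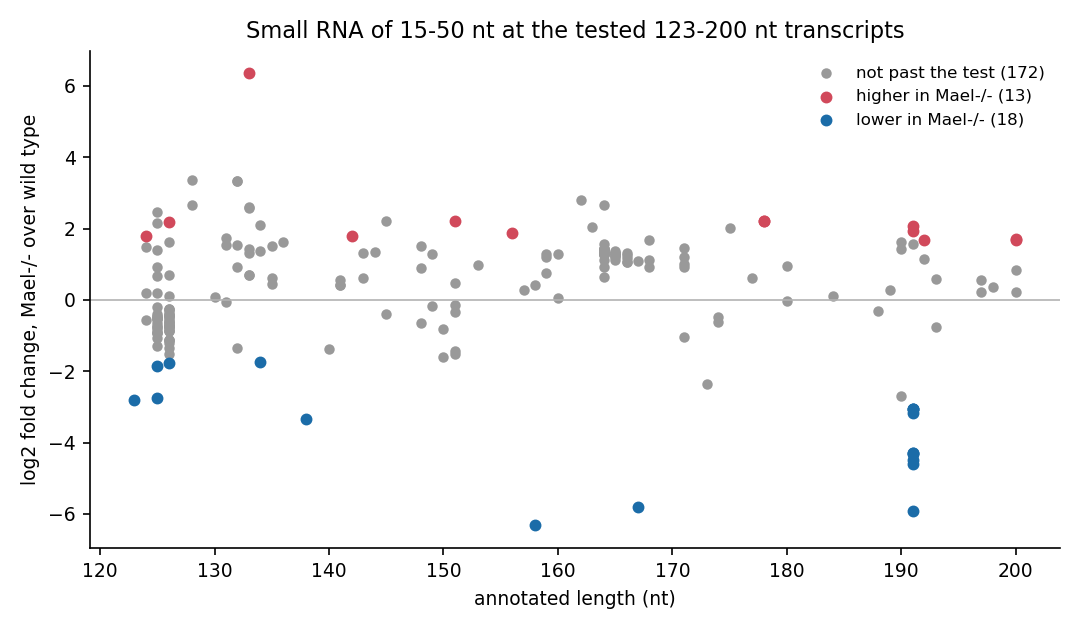
Log2 fold change of small RNA, Mael-/- over wild type (vertical axis), against annotated length in nt (horizontal axis) for the 203 tested transcripts, with 13 called higher, 18 called lower and 172 not past the test in separate colours. The 10 called falls at 191 nt lie from -5.91 to -3.06, and the 33 transcripts at 164 to 166 nt all lie above 0 without a call. The highest point, 6.35 at 133 nt, was called higher but had a mean of 0.453 CPM.

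In long RNA, anti-MAEL was compared with IgG by the same test, which could miss large differences at these transcripts. The standard error of the log2 fold change was 2.03 at ENSMUST00000160554 and 1.11 at ENSMUST00000082761. Few calls therefore do not show that the libraries were alike. The single IgG library is assumed in the test to vary like the anti-MAEL pair. Over 16066 features tested, 1.28% were called higher with anti-MAEL and 0% lower by edgeR, although 1225 features had an unadjusted p under 0.05. The counts with DESeq2 were 350 and 0. Of the short transcripts 143 were tested, with 1 called higher and 0 lower by edgeR, 4 at an unadjusted p under 0.05, and 2 higher and 0 lower by DESeq2. The median log2 fold change was 0.29 for the 143 and 0.02 for all features. It was -0.07 with library totals, where 68 in place of 106 of the 143 lay above 0. The direction of this median thus depended on the scaling. With library totals, the median of the 10 high transcripts of 191 nt went from 0.20 to -0.26. At 164 to 166 nt it went from 0.67 to 0.23 and at 124 to 126 nt from 0.85 to 0.51, with 0 called either way.

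The transcript called was ENSMUST00000131042 (182 nt), which had 70 and 98 counts (12.2 and 9.02 CPM) in the anti-MAEL libraries and 2 counts in the IgG library. The ratio of the summed anti-MAEL level to IgG was 39.4 (exact counting interval 10.7 to 328), and the log2 fold change was 5.65 ± 0.824 (SE; edgeR quasi-likelihood, adjusted p = 0.0140). It was nearly absent from the size-selected libraries, at 0.609 CPM at 50 to 150 nt and 0.0116 CPM at 15 to 50 nt. It was the exception, since the most abundant transcripts were as high with IgG. ENSMUST00000160554 (159 nt), the highest per length in both long immunoprecipitates, had 12898 and 11683 CPM in anti-MAEL RNA against 12951 CPM in IgG. ENSMUST00000083988 (148 nt) had 1567 and 4563 CPM in anti-MAEL RNA against 5022 CPM in IgG, and ENSMUST00000082761 had 2861 and 1851 against 2021 CPM. The 10 high transcripts of 191 nt had 788 to 2368 and 458 to 1321 CPM in anti-MAEL RNA against 772 to 2247 CPM in IgG. For each of the 3 named transcripts the IgG value lay between the anti-MAEL libraries or within the distance that separated them.

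Each size-selected immunoprecipitate is a single library with no IgG library of its size, so the values are descriptions without a test and without a background. They also come from another kit than the long RNA, one that keeps the strand and whose protocol names no fragmentation, while the long RNA kit fragments to 120 to 200 bp and does not keep the strand. The log2 ratios and the counts beyond 4-fold below use CPM with 0.5 CPM added, which understates the change of low transcripts. For named transcripts, values given as times are plain ratios of CPM.

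At 50 to 150 nt, transcripts annotated as longer than the window held most of the short transcripts' reads. Those over 150 nt took 8.68% of counts (976 CPM per kb) and those of up to 150 nt 0.955% (62.9 CPM per kb). The highest per length was ENSMUST00000083242 (just over 150 nt), with 3942 CPM at 50 to 150 nt against 9.74 and 9.02 CPM in anti-MAEL long RNA and 12.2 CPM with IgG. Its level at 50 to 150 nt was 420 times the mean of the long RNA. The reverse held for ENSMUST00000160554, with 40.1 CPM at 50 to 150 nt and a mean in long RNA 307 times as high. The 10 high transcripts of 191 nt had 3815 to 4683 CPM at 50 to 150 nt, above each of their levels in long RNA, and the 4 excluded transcripts had 6.40 to 3789 CPM, while ENSMUST00000082761 had 1451 CPM, below both of its anti-MAEL long RNA values.

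Over the 730 short transcripts with at least 1 count in these libraries, 139 (19.0%) were more than 4-fold higher at 50 to 150 nt than in anti-MAEL long RNA, and 27 were more than 4-fold lower. Over all 32472 features, 5.25% were higher and 29.2% lower by this measure. The median log2 ratio was 0.12 for the short transcripts and -0.54 for all features, and 1.22 against -1.48 among those with at least 10 counts. The 124 to 126 nt transcripts contributed most, with 51 of 90 more than 4-fold higher.

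**Figure D4:**
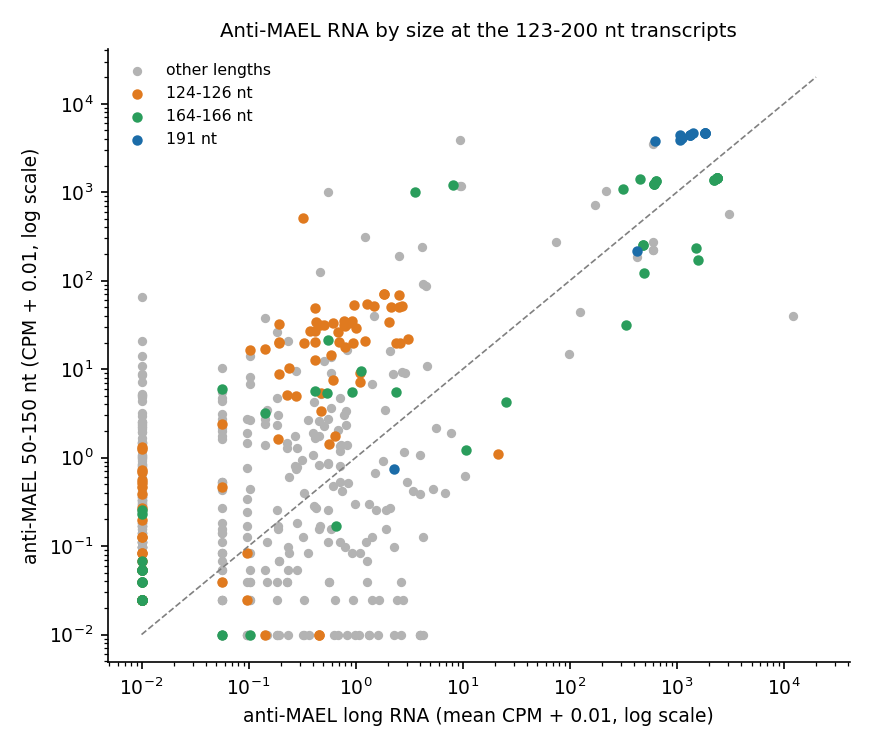
Level at 50 to 150 nt (CPM + 0.01, vertical axis) against the mean of the 2 anti-MAEL long RNA libraries (CPM + 0.01, horizontal axis), both on log scales, with 1 point per short transcript that has counts in either and a dashed line at equality. Points at 0.01 on an axis have 0 counts there. Transcripts of 124 to 126 nt lie mostly above the line, and the highest point on the horizontal axis, ENSMUST00000160554, lies far below it at 40.1 CPM.

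At 15 to 50 nt the immunoprecipitate was led by other transcripts than wild-type small RNA of the same size. ENSMUST00000175444 (125 nt) was highest per length, with 1115 CPM in the immunoprecipitate against 21.9 and 17.2 CPM in wild-type and 32.5 and 30.0 CPM in Mael-/- small RNA, 57.0 times the wild-type mean. Between the genotypes its log2 fold change with TMM was -0.51 ± 0.451 (SE), opposite in sign to the CPM, and it was not called. ENSMUST00000111793 (150 nt) had 401 CPM against 3.92 and 2.83 CPM in wild type, 119 times the mean. Next came ENSMUST00000175516 (126 nt) with 323 CPM and ENSMUST00000175167 (125 nt) with 311 CPM, which had 7.86 and 6.43 CPM and 8.15 and 6.69 CPM in wild type. Of 165 transcripts of 124 to 126 nt, 44 had at least 100 CPM in the immunoprecipitate (lowest 106, median 283, highest 1115). In wild-type library a the same 44 had 1.31 to 29.9 CPM (median 8.05), in library b 1.16 to 21.5 (median 7.01), and in anti-MAEL long RNA at most 5.25 CPM. Each of the 44 was higher in the immunoprecipitate, by 7.44 to 86.3 times the wild-type mean, but they were picked by their level in it, so this range is a description.

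The transcripts of 191 nt lay at the other extreme. The 10 that had 4077 to 4816 CPM in wild-type small RNA had 9.04 to 25.9 CPM in the 15 to 50 nt immunoprecipitate, and the 3 low ones had 22.3 to 25.9 CPM. The 164 to 166 nt transcripts had at most 17.9 CPM there and at most 71.3 CPM in wild-type small RNA. Over 1151 short transcripts with at least 1 count, 81 were more than 4-fold higher in the immunoprecipitate than in wild-type small RNA and 42 more than 4-fold lower, where 13.6% and 3.47% of all 36149 features were. Of the 81, 49 were 124 to 126 nt long, and of the 42, 13 were 191 nt long. The median log2 ratio was 0.03 for the short transcripts and 0.17 for all features. Between the size-selected libraries themselves, 6.06% of all features were more than 4-fold higher at 50 to 150 nt and 11.7% at 15 to 50 nt, against 133 (10.8%) and 75 (6.12%) of 1226 short transcripts. Their median log2 ratio was -0.02, and 0.51 among those with at least 10 counts. ENSMUST00000082761 was 80.9 times and ENSMUST00000083242 117 times as high at 50 to 150 nt, whereas ENSMUST00000175444 had 70.2 CPM at 50 to 150 nt beside its 1115 CPM at 15 to 50 nt.

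**Figure D5:**
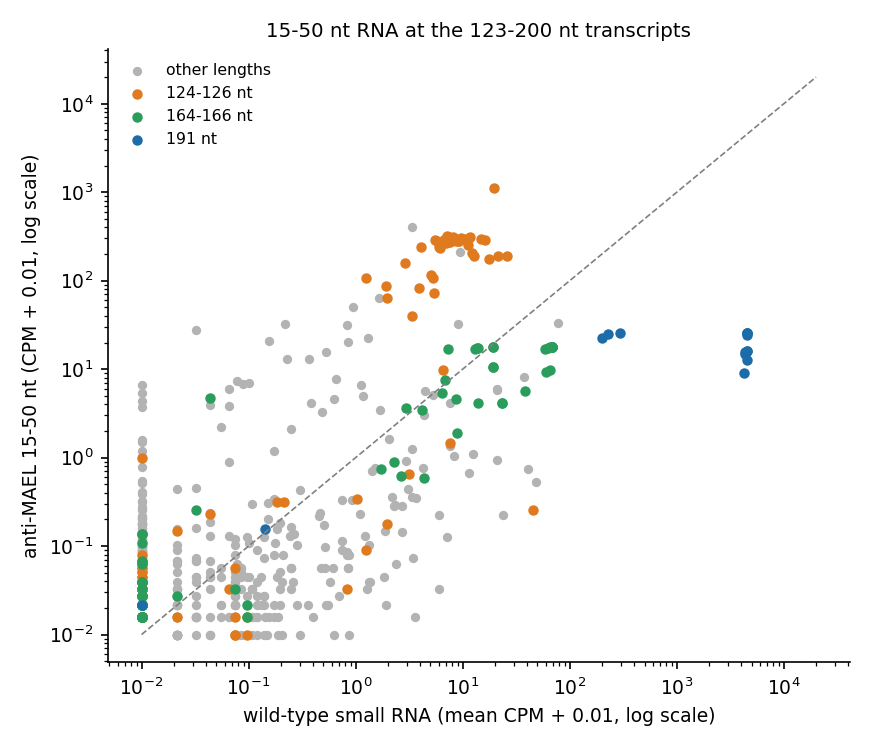
Level in the 15 to 50 nt anti-MAEL immunoprecipitate (CPM + 0.01, vertical axis) against the mean of the 2 wild-type small RNA libraries (CPM + 0.01, horizontal axis), both on log scales, with 1 point per short transcript that has counts in either and a dashed line at equality. Points at 0.01 on an axis have 0 counts there. The 44 transcripts of 124 to 126 nt with at least 100 CPM lie above the line, and 10 transcripts of 191 nt lie at the far right, at 9.04 to 25.9 CPM on the vertical axis.

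The mRNA and ribosome footprint tables of both genotypes count coding parts only, and the 1619 transcripts without a coding size had 0 counts in them. Of the 44 with one, 13 to 16 were detected per library, with 2083 and 693 counts in all in wild-type mRNA, 935 and 486 in Mael-/- mRNA, 638 and 403 in wild-type footprints and 500 and 336 in Mael-/- footprints. Most mRNA counts belonged to ENSMUST00000099177 (200 nt), with 1697 and 484 counts in wild-type and 682 and 250 in Mael-/- mRNA, and 155 and 87 against 157 and 78 in footprints. ENSMUST00000092552, also 200 nt, had the same 4 footprint counts with at most 1 mRNA count.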

How the data were processed

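Each library has its own deposited file of raw read counts, 1 count per transcript or piRNA locus. Build mm9 and the tools TopHat2 2.0.7, Bowtie2 2.0.6 and CASAVA 1.8 are listed in the submitters' processing notes. The counting step, its use of strand and its treatment of reads with several matches are not described in the labels. Values of near-identical, overlapping and antisense transcripts are therefore uncertain. Each of 214 piRNA loci was represented by its entry with the highest count.

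CPM are relative to library totals. Tests used edgeR 4.0.16 in R 4.3.3 (quasi-likelihood, TMM, filterByExpr, Benjamini-Hochberg over all features), with genotype or antibody as the only term. DESeq2 1.42.0 was an alternative. Scripts were tested on simulated data. Other steps used Python 3.11.15 with scipy 1.17.1.

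Transcripts were named as the 4 highest in CPM per kb in each kind of library, with identical ones as 1, and as the 2 largest called changes in each direction at a mean of 5 CPM or more without overlap of the groups. Of the 4 highest, those of near-identical 191 nt or 164 nt transcripts are given as ranges. The 2 transcripts of 200 nt in the mRNA paragraph were chosen after their values were seen. The members, lengths and lists were chosen with earlier results of these data known. A list of H/ACA, U1 and U2 protein genes was not used, because identifiers had no symbols.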

Additional observations from a re-analysis of the deposited data

How the results depend on the processing

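Reads shared between transcripts, 2 libraries per genotype, 1 IgG library and single size-selected libraries limit these results, and the causes of the changes below were not tested. The share of counts was 27.5% in wild type, 7.86% in Mael-/-, 7.0% with IgG, 10.5% at 50 to 150 nt and 2.05% at 15 to 50 nt of Ensembl counts alone. With every piRNA entry in the total it was 2.61%, 1.35%, 6.76%, 9.25% and 1.26%. With the 4 excluded transcripts added it was 6.43% in wild type, 7.10% with IgG, 10.4% at 50 to 150 nt and 1.47% at 15 to 50 nt, and with identical transcripts counted once 4.24%, 5.59%, 8.31% and 1.45%. Nearly identical transcripts stayed separate in that setting, so it does not bound how often a read was counted. An example is ENSMUST00000082768 and ENSMUST00000083833, with 37451 and 37452 counts in wild-type library b. In the genotype test, against 378 features higher, 346 lower and 13 and 18 short transcripts, library totals gave 2449 and 139 features and 84 short transcripts higher. DESeq2 gave 433 features higher and 617 lower, and 28 short transcripts higher and 23 lower. Every piRNA entry gave 585 features and 25 short transcripts higher, no filter 233 and 6, and DESeq2's size factors 226 and 6. Leaving out 1 library at a time gave 27 to 1218 features higher, 51 to 1067 lower, 0 to 61 short transcripts higher and 3 to 40 lower. The letters a and b are not stated to mark a shared batch. With them as a replicate block the test called 2318 features higher and 1754 lower, and 83 and 51 short transcripts (all 33 tested at 164 to 166 nt higher, and 9 higher and 29 lower at 124 to 126 nt), and the a minus b differences of the genotypes correlated at 0.55 across 9906 features. Against IgG, where edgeR called 206 features and 1 short transcript higher, DESeq2 called 350 and 2, library totals 101 and 2, no filter 661 and 4 (10 features lower), and DESeq2's size factors 325 and 2 (1 feature lower). Without 1 anti-MAEL library no test was possible, and the median of the short transcripts was -0.06 without a and 0.66 without b. The median log2 ratios of 0.12 (50 to 150 nt over long RNA), 0.03 (15 to 50 nt over wild-type small RNA) and -0.02 (50 to 150 over 15 to 50 nt) became 0.52, 0.16 and -0.081 with 0.1 CPM added, 0.031, 0.0083 and -0.0042 with 2 CPM added, and 1.22, 0.19 and 0.51 with at least 10 counts. With identical transcripts counted once the first was 0.37 and the last 0.12, both positive. Without anti-MAEL long RNA replicate b the first was 0.16.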
